A study of Mus musculus with 6 samples.

Results

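The authors sorted their barcodes into 5 numbered clusters without cell type names, and cluster 0 is the largest. It was taken as all barcodes that the deposited metadata gave the number 0 at a clustering resolution of 0.2, which were 2210 of 5160 barcodes (42.8%). The cells were fetal testis germ cells of male mice at embryonic day 14.5, sorted for the red fluorescent protein tdTomato. Samples labelled wildtype (3, called control here) were set against 3 labelled Rb1 cKO, in which the retinoblastoma gene was conditionally deleted. All 6 had a mixed genetic background, C57/B6 and 129, and were sequenced with droplet libraries of 10x Genomics v2 chemistry, which counts unique molecular identifiers (UMIs) at the 3' ends of transcripts. Neither the exon that was deleted nor the driver of the Cre recombinase is named in the labels, which also do not say whether the replicates came from separate animals, so p-values measure only how far these samples spread, and that spread may be technical.

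In G1, the retinoblastoma protein and its relatives bind E2F transcription factors and keep the genes for DNA replication at a low level. Cyclin D and cyclin E kinases phosphorylate these pocket proteins, E2F is released, and cyclin E, licensing factors, nucleotide-making enzymes and chromatin assembly factors are made as cells pass into S phase. Male germ cells of the mouse leave this cycle around the middle of gestation and rest until after birth. Female germ cells of the same age enter meiosis under retinoic acid, with Stra8 as an early responder, and in the fetal testis this response is held back.

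Cluster 0 was named G1/S from Stra8, Ccne1 (cyclin E1), Gins2 (a subunit of the replicative helicase), Chaf1b (a subunit of chromatin assembly factor 1), Rrm2 (a subunit of ribonucleotide reductase) and Cdc6 (a loader of the helicase at origins). Because the retinoblastoma protein acts through E2F, the promoters of these genes are shown for the letters of the core E2F motif. The letters searched, on both strands, were TTCCCGC and TTCGCGC, together with the variants TTGCCGC and also TTGGCGC. No other motif was searched, and matches stand in capitals. Sequences run from 250 bases before to 50 bases after a gene's start in RefSeq, build GRCm38.p6. The first 3 are markers of the cluster, and the last 2 are higher in cKO cells among the genes of smallest p:
Stra8: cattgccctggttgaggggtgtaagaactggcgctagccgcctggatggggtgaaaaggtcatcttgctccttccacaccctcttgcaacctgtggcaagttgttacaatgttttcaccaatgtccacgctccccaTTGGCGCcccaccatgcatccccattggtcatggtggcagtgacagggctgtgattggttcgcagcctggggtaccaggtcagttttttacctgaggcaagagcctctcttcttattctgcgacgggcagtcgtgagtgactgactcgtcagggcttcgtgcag
Chaf1b: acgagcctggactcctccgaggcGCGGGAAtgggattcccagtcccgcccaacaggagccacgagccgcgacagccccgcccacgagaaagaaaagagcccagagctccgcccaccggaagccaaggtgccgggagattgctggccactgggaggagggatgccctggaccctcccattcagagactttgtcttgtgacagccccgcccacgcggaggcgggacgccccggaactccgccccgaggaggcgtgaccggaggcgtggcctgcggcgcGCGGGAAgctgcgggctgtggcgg
Cdc6: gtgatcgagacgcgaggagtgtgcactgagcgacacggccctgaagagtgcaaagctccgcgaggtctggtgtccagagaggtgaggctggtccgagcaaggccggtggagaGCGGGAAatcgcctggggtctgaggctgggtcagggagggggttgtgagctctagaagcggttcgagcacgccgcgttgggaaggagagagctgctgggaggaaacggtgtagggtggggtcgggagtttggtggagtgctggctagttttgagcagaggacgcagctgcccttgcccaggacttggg
2810417H13Rik: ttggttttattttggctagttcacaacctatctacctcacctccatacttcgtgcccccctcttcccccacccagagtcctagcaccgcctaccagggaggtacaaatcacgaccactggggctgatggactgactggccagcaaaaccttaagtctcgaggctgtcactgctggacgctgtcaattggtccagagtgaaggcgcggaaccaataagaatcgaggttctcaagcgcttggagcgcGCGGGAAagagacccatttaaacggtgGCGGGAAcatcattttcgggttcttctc
Prim1: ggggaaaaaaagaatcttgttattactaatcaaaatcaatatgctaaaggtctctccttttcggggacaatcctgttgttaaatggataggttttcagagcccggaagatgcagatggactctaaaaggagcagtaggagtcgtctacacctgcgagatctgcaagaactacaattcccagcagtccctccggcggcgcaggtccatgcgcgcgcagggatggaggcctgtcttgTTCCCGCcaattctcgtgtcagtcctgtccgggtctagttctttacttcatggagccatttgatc
These windows were chr6:34920698-34920997 for Stra8, chr16:93883651-93883950 for Chaf1b, chr11:98907901-98908200 for Cdc6, chr9:65890073-65890372 for 2810417H13Rik (Pclaf in RefSeq) and chr10:128014965-128015264 for Prim1, each on the plus strand. The annotation used for gene coordinates starts Stra8 at 34920163 and Cdc6 at 98907801, both before their windows. By that annotation these windows lie inside the gene. A match is a run of letters and not a measured binding site. Of the 6 markers, 5 had a promoter in the table and 4 of these (80.0%) held a match. Ccne1 did not, which says only that these letters are not in its window. All 5 promoters printed hold a match. Slbp and Fam111a, also among the genes of smallest p that are higher in cKO cells, held none in their promoters. Of the 12 genes with the largest ratio to the other clusters, named below, 11 had a promoter and 6 of these (54.5%) held a match. Among the 8 lowest genes, 1 of 6 promoters did (16.7%). Among the genes tested in cluster 0, 8150 had a promoter and 21.7% held a match, and over all 32851 promoters the share was 9.57%. A match stood in 22 of 30 promoters of a list of S phase genes (73.3%), in 9 of 17 of a meiosis list (52.9%) and in 10 of 48 of a list of G2 and M phase genes (20.8%).

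Controls 1 to 3 gave cluster 0 338, 173 and 606 barcodes, which was 43.1%, 40.2% and 44.8% of their own barcodes. The cKO samples gave 191, 384 and 518 barcodes, or 39.8%, 40.5% and 44.5%, and these shares overlapped with those of the controls. The summed libraries held 3110738 to 7857361 UMIs. The median per cell was 15065 ± 2619 UMIs for controls and 14917 ± 1591 for cKO (SD over 3 samples), a difference of -148 UMIs with p = 1 in an exact two-sided permutation test, where 0.1 is the smallest p that 3 samples against 3 allow. Over all barcodes, 9 sequences occurred in more than 1 library, and 10 barcodes of cluster 0 carried one of them. The germ cell marker list, which includes Dazl, Ddx4 and Pou5f1, summed to 6140 to 6899 CPM (UMIs scaled to a library total of 1e+06) in control cluster 0 libraries and 6192 to 6871 CPM in cKO libraries. The mesonephric or surface epithelial list summed to 347.6 to 441 CPM in controls and 381.8 to 441.4 CPM in cKO libraries, with its marker Upk3b at 0, and the endothelial list to 40.4 to 73.1 and 40.6 to 52.3 CPM. The remaining lists for other cells were lower: 6.09 to 28.5 CPM for control and 9.64 to 10.5 CPM for cKO libraries for Sertoli cells, with control 3 highest, 9.29 to 24.4 and 7.07 to 17.7 CPM for erythroid cells, at most 5.46 CPM for interstitial stroma, at most 2.55 CPM for peritubular myoid cells, at most 1.04 CPM for Leydig cells and at most 3.56 CPM for macrophages. The Leydig markers Hsd3b1 and Insl3, the stromal marker Tcf21 and the macrophage marker Adgre1 were at 0 in the cluster's 6 libraries.

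All 6 markers were higher in cluster 0 than in the sum of the other 4 clusters in each of the 6 samples. Since the clusters were made from the expression of these same cells, this is a description of the cluster and carries no test. Ccne1 stood at 70.5, 88.1 and 95.1 CPM in control cluster 0 libraries and at 81.7, 84.1 and 85.3 CPM in cKO libraries, above every library of the other clusters, which reached 69.9 CPM. Gins2 stood at 40.2 to 54.6 CPM, and cluster 3 came close with a mean of 42.5 CPM, while cluster 2 had 10.1 CPM. Cdc6 followed the same order of means, with 47.6 to 55.4 CPM in cluster 0, a mean of 43.2 CPM in cluster 3 and of 11.9 CPM in cluster 2. By sample, Cdc6 was higher in cluster 3 than in cluster 0 in control 1 (50.2 against 48.6 CPM), cKO 1 (54.8 against 47.6) and cKO 3 (59.4 against 52.7). Gins2 was higher in cluster 3 in cKO 1 (56.5 against 50.1 CPM). In the remaining samples cluster 0 was higher for both genes. In cells thinned to 10000 UMIs, Gins2 had a UMI in 36.5% of cluster 0 and 37.2% of cluster 3 cells. Chaf1b had a mean of 72.3 ± 8.58 CPM in cluster 0 (SD, n = 6 samples) and of 30.1 to 50.1 CPM in the others, and Rrm2 had 192 ± 23.1 CPM against 74.2 to 156 CPM. The other clusters did not lack these genes. In cells thinned to 10000 UMIs, Rrm2 had a UMI in 79.9% of cluster 0 cells and in 54.3% of the others (80.0% in cluster 4), and Ccne1 in 56.1% and 30.4%. The median cluster 0 cell had 3 of the 6 markers, the median cell of clusters 1 and 2 had 1 and that of clusters 3 and 4 had 2. At least 3 markers were found in 57.1% of cluster 0 cells and in 42.4% of cluster 3 cells, and 3 of 2044 cells had all 6.

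**Figure D1:**
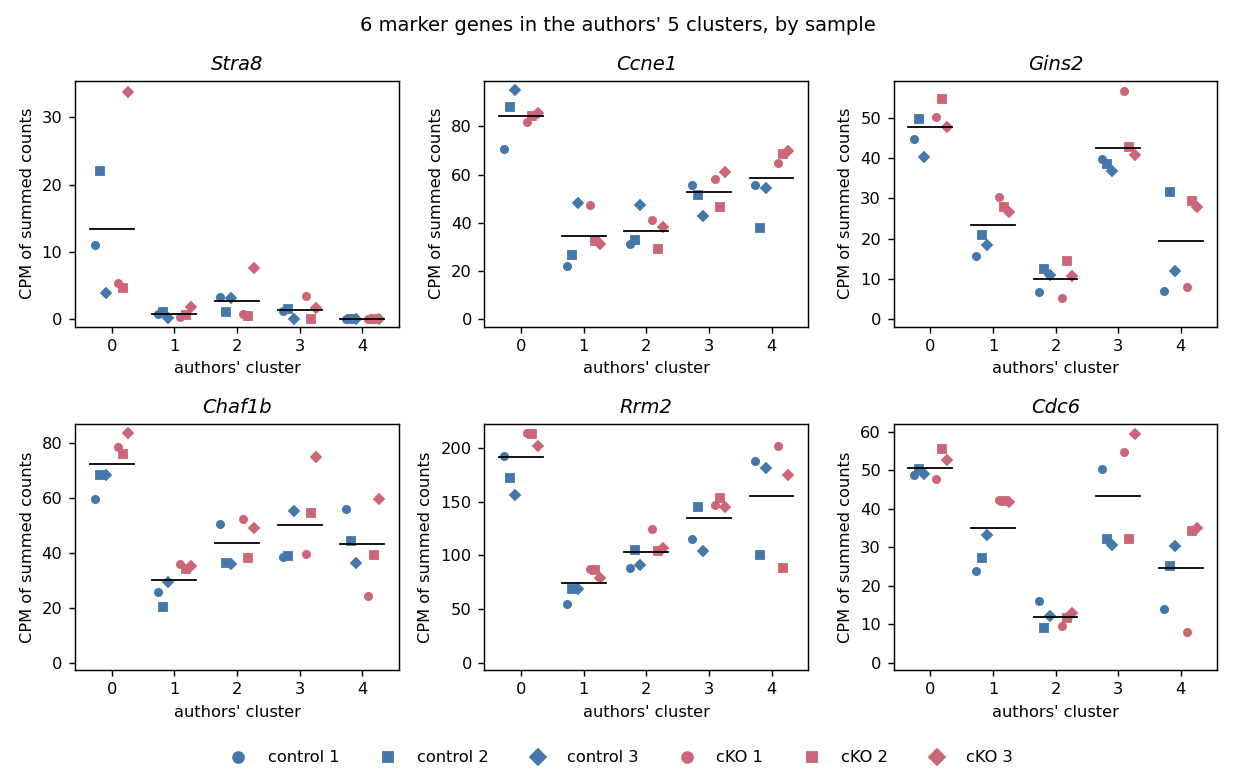
CPM of the 6 markers (y axis) in each of the authors' 5 clusters (x axis), with 1 point per sample and the mean over 6 samples as a black line. Ccne1 in cluster 0 lies at 70.5 to 95.1 CPM, and the points of cKO 3 and control 2 stand out for Stra8, at 33.7 and 22.1 CPM.

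Among genes with at least 50 CPM in cluster 0 and 1 direction in all 6 samples, the 12 with the largest ratio to the other clusters were all genes of DNA replication, nucleotide supply, chromatin assembly or the control of S phase apart from Wdr76, whose role is not given here. They were Ccne1, Rrm2, 2810417H13Rik, Chaf1b, Fbxo5, Cdc6, Tk1, Cdc45, Wdr76, Mcm4, Brca1 and Chaf1a, with mean log2 ratios from 1.14 ± 0.24 for Ccne1 to 0.63 ± 0.10 for Chaf1a (SD, n = 6). The factor 2810417H13Rik, also called Pclaf, binds the sliding clamp PCNA, and its mean was 63.8 CPM in cluster 0, 59.7 CPM in cluster 3 and 17.9 CPM in cluster 1. Fbxo5, an inhibitor of the anaphase-promoting complex, stood at 142 CPM in cluster 0, 138 CPM in cluster 2 and 136 CPM in cluster 4, so these clusters were close for it. The thymidine kinase Tk1 stood at 67.0 CPM in cluster 0, 67.4 CPM in cluster 2 and 74.5 CPM in cluster 4. The 8 genes lowest against the rest were mitotic genes and Arl6ip1: Cdc20, the activator of the anaphase-promoting complex, had 62.0 to 93.5 CPM in cluster 0 and a mean of 442 CPM in cluster 1, a log2 ratio to all other clusters of -2.03 ± 0.17 (SD, n = 6). Cyclin B1 (Ccnb1) stood at 198 CPM against 443 CPM in the rest, the spindle protein Nusap1 at 54.9 against 121 CPM, and the ubiquitin-conjugating enzyme Ube2c at 325 against 648 CPM.

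Over lists, 39 of 42 S phase genes were higher in cluster 0 than in the rest in 6 of 6 samples, against 11.5% of all 10091 genes. In the other direction, 39 of 54 G2 and M phase genes were lower in 6 of 6, against 13.3% of all genes. Origin licensing and the G1/S switch had 18 of 20 higher, replication initiation and the fork 25 of 29 and chromatin assembly and maintenance methylation 8 of 9. Nucleotide synthesis had 10 of 12, and E2F and DP factors 6 of 10. Cluster 1 made up 1863 of the 2950 cells of the rest. The S phase list summed to a mean of 7357 CPM in cluster 0, 5050 in cluster 1 and 6707, 6468 and 6747 in clusters 2, 3 and 4. Replication initiation and the fork summed to 3245 CPM in cluster 0 and 3266 CPM in cluster 2. The pocket proteins and kinase inhibitors had 2 of 7 higher and 2 lower, and Rb1 itself, at 7.14 CPM in cluster 0 and 5.399 CPM in the rest, was higher in 6 of 6 samples. Replication-dependent histones separated cluster 0 from cluster 2, with a summed mean of 515 CPM in cluster 0, 1097 CPM in cluster 2 and 171 CPM in cluster 1. Of 18 pluripotency and primordial germ cell genes, 7 were lower in 6 of 6 samples and 3 higher, with a median log2 ratio to the rest of -0.16. The germ cell gene Dppa3 was among the higher, at 2638 CPM in cluster 0 and 2582 CPM in the rest, and the RNA-binding protein gene Dazl was lower in 6 of 6, at 1143 and 1198 CPM. In cells thinned to 10000 UMIs, the median cluster 0 cell had 73 S phase UMIs and 84 G2 and M phase UMIs, and the median cluster 1 cell had 49 and 114. The clusters overlapped, and 2.74% of cluster 0 cells reached the G2 and M phase median of cluster 1. S phase UMIs outnumbered G2 and M phase UMIs in 29.5% of cluster 0 cells, from 13.5% in control 3 to 38.0% in cKO 3. The share was 0.118% in cluster 1, 9.92% in cluster 2, 17.8% in cluster 3 and 16.25% in cluster 4. The S phase medians of clusters 2, 3 and 4 were 66, 67 and 67 UMIs, nearer to cluster 0 than that of cluster 1.

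**Figure D2:**
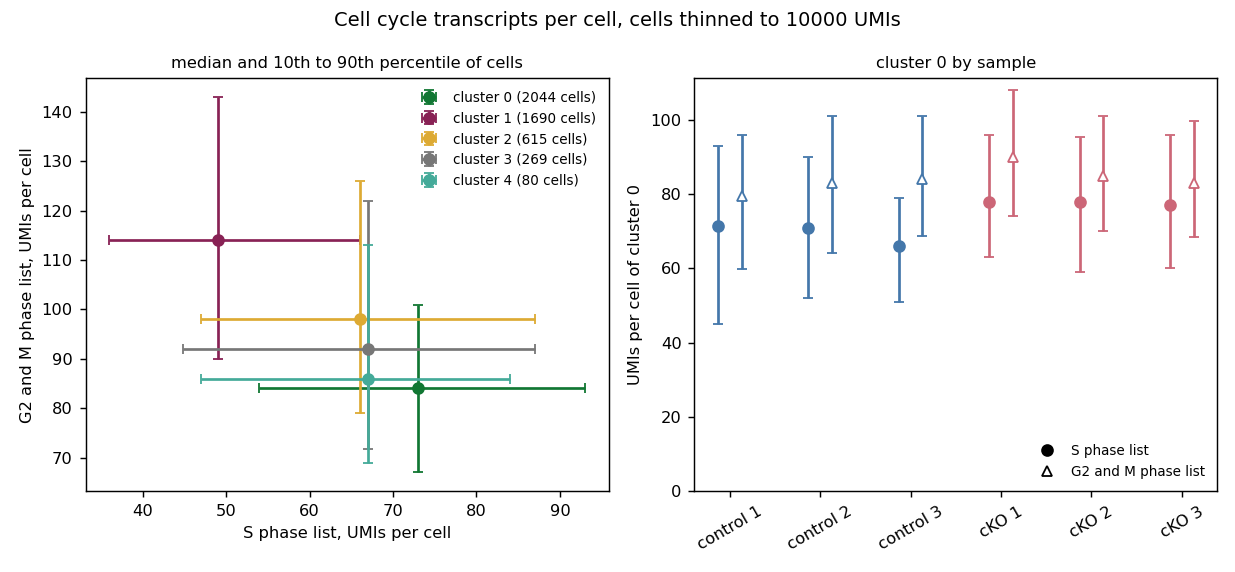
UMIs per cell of the S phase and G2 and M phase lists in cells thinned to 10000 UMIs, as median and 10th to 90th percentile, for the 5 clusters (left) and for cluster 0 by sample (right). Cluster 0 has the highest S phase median, 73, and the lowest G2 and M phase median, 84; its S phase medians are 66 to 71.5 for controls and 77 to 78 for cKO samples.

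The targeted gene was read first in the comparison of genotypes. Rb1, on chromosome 14 from 73183673 to 73325822 in GRCm38, stood at 11.9, 10.8 and 7.37 CPM in control cluster 0 libraries and at 4.38, 4.59 and 3.88 CPM in cKO libraries, scaled by TMM factors as in the fit. Every cKO library lay below every control, on 14 to 57 UMIs per library. The log2 fold change was -1.21 ± 0.25 (SE), and edgeR's quasi-likelihood test gave an adjusted p of 0.9995 over all genes. Without a filter on low counts the adjusted p was 0.0198, and over the 15 alternatives it ran from 0.0198 to 0.99999 with fold changes from -1.83 to -1.04. Transcripts are read at their 3' ends, which can lie outside the deleted part, so this value may check nothing about the deletion.

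No gene passed an adjusted p of 0.05 between cKO and control cells of cluster 0. edgeR tested 10091 genes and called 0 (0%), with 198 higher (1.96%) and 194 lower (1.92%) in cKO at an unadjusted p under 0.05, and DESeq2 called 0, with 58 and 73. Leaving out control 1 raised these edgeR counts to 385 and 417, with 0 called, and leaving out cKO 1 lowered them to 113 and 129. Without control 3, edgeR called 2 genes, and without the filter on low counts it called 15, among them 2810417H13Rik, Prim2, Fam111a, Rnaset2b, Rab35, Rb1 and Nme2. In 492 genes (4.88%) the cKO libraries all lay above the controls, and in 483 (4.79%) all below. The 10 genes of smallest p, 5 in each direction, are therefore given by their values.

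The 5 genes of smallest p that were higher in cKO cells were 2810417H13Rik, Prim2, Prim1, Slbp and Fam111a, each with a known part in DNA replication or histone supply. 2810417H13Rik stood at 54.1, 49.0 and 47.3 CPM for control and at 73.6, 82.6 and 77.1 CPM for cKO libraries. The groups were far apart relative to their spread, with a log2 fold change of 0.64 ± 0.10 (SE) and an adjusted p of 0.433 by edgeR and 0.170 by DESeq2. Prim1 and Prim2 encode the subunits of primase, which lays the RNA primers of replication. Prim1 stood at 120, 118 and 119 CPM for control and at 151, 148 and 150 CPM for cKO libraries, a log2 fold change of 0.33 ± 0.08. Prim2 stood at 26.4, 30.4 and 24.9 CPM against 43.5, 37.7 and 41.2 CPM, a log2 fold change of 0.59 ± 0.12. In both primase genes the groups did not overlap. Slbp, which binds the stem-loop of histone mRNAs, had 551 ± 19.5 CPM for control and 673 ± 8.79 CPM for cKO libraries (SD, n = 3), a log2 fold change of 0.29 ± 0.07. Fam111a, a protease that binds PCNA, was the least abundant, at 6.08, 2.85 and 4.74 CPM against 10.02, 9.37 and 14.3 CPM, a log2 fold change of 1.28 ± 0.28. Adjusted p by edgeR was 0.9995 for these 4. The groups also did not overlap for the marker Rrm2, with 194, 170 and 162 CPM for control and 209, 213 and 206 CPM for cKO libraries (log2 0.25 ± 0.09), or for Chaf1b, with 59.9, 67.4 and 70.7 against 76.4, 75.7 and 85.3 CPM (log2 0.26 ± 0.10). They overlapped for Gins2, Cdc6, Ccne1 and Stra8, and Ccne1 had a log2 fold change of -0.03 ± 0.12.

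The 5 lower genes of smallest p were Rnaset2b, Rab35, Rb1, Nme2 and Ubald2. Rnaset2b, a ribonuclease with a near-identical neighbour, Rnaset2a, stood at 17.6, 20.2 and 14.6 CPM for control and at 9.08, 9.18 and 7.23 CPM for cKO libraries, and how reads were split between the copies is not given in the sources used here, so its value is uncertain. Rab35, a small GTPase of membrane recycling, stood at 25.8, 23.4 and 22.8 CPM against 12.2, 14.3 and 15.8 CPM, a log2 fold change of -0.74 ± 0.15. Nme2, a nucleoside diphosphate kinase with a close relative in Nme1, had 23.3 ± 5.48 CPM for control and 13.1 ± 1.88 CPM for cKO libraries (SD, n = 3). Ubald2 had 95.5 ± 9.84 and 71.3 ± 6.40 CPM. In all 5 every cKO library lay below every control.

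**Figure D3:**
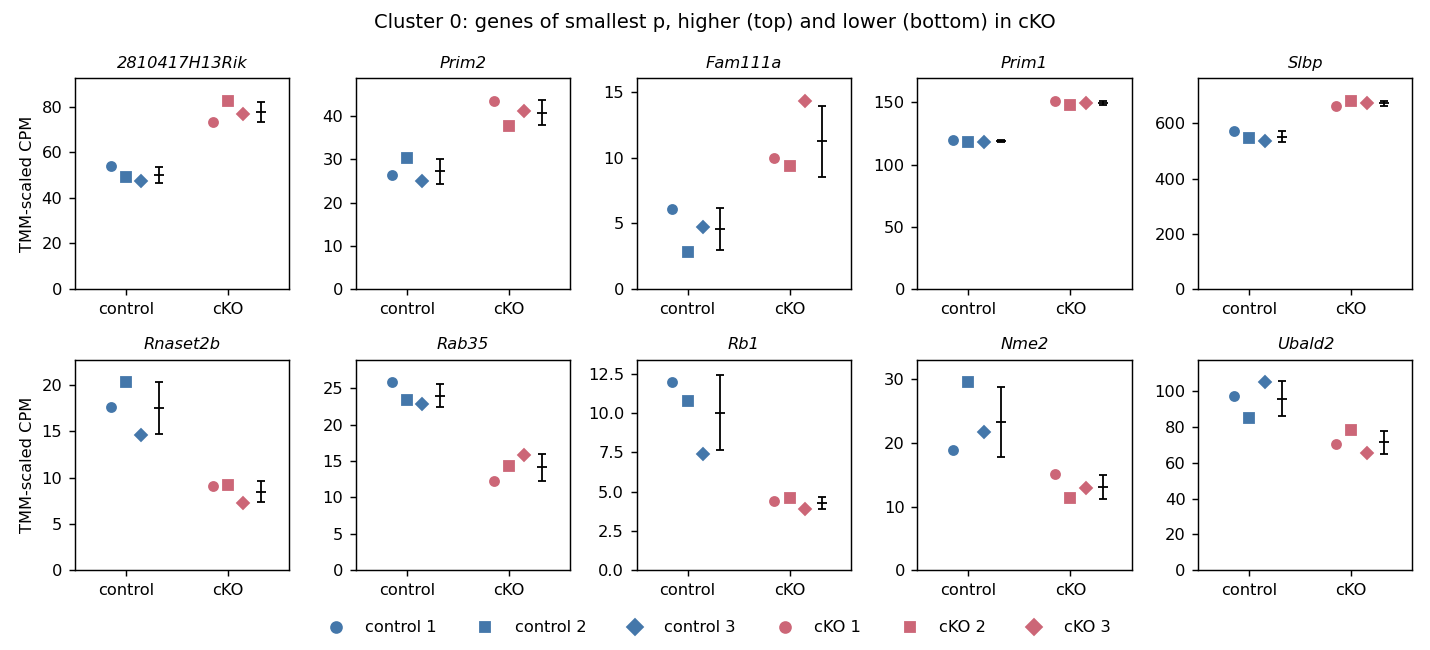
TMM-scaled CPM in cluster 0 (y axis, from 0) of the 10 genes of smallest p, by genotype, with 1 point per sample and mean ± SD beside it (n = 3). The 3 cKO points lie above the 3 control points in the top row and below them in the bottom row, and none of the 10 passed an adjusted p of 0.05.

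The S phase list was shifted a little in 1 direction. Of 42 members tested, 41 had log2 fold changes above 0 and the median was 0.16, while 5011 of all 10091 genes were positive, with a median of -0.002. An unadjusted p under 0.05 was reached by 11 members that were higher, against 1.96% of all genes, and by 0 that were lower, against 1.92%. In 16 members the cKO libraries all lay above the controls, against 4.88% of all genes. The summed list stood at 6541 to 7178 CPM for control and 7682 to 7860 CPM for cKO libraries. The G2 and M phase list stood at 7929 to 8436 and 8460 to 9091 CPM. Both sums are plain CPM, without TMM factors, and on this scale the groups did not overlap for either. For G2 and M phase, however, control 3 (8436 CPM) and cKO 3 (8460 CPM) nearly met. Divided by their TMM factors (0.970 and 0.983), control 3 lies above cKO 3 for that list, so the groups overlap. The lists share members, Rrm2, Chaf1b, Gins2 and Cdc6 being S phase genes as well as markers. Leaving out any 1 library kept the median between 0.13 and 0.18, with 35 to 41 positive. Hells, a chromatin remodeller and the most abundant member, had 757 ± 45.2 CPM for control and 832 ± 119 CPM for cKO libraries (SD, n = 3), and its groups overlapped. Cdc45, of the replicative helicase, stood at 102, 88.9 and 88.6 CPM against 115, 116 and 115 CPM.

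The lists for parts of the replication machinery had medians from 0.07 to 0.15. Origin licensing and the G1/S switch had 16 of 20 positive and a median of 0.09, with 0 members at an unadjusted p under 0.05; Mcm6, a helicase subunit, had 289 ± 20.8 CPM for control and 315 ± 15.2 CPM for cKO libraries. Replication initiation and the fork had 24 of 29 positive and a median of 0.13, chromatin assembly and maintenance methylation 8 of 9 and 0.15, checkpoint and repair 17 of 22 and 0.14, and nucleotide synthesis 9 of 12 and 0.07. Without cKO 3 the medians for licensing and for the fork were 0.03 and 0.06, and without control 1 that for nucleotide synthesis was 0.03. Tk1, which makes thymidine monophosphate, stood at 63.1, 55.7 and 59.8 CPM against 78.6, 71.5 and 74.2 CPM, and Brca2 of repair at 63.3, 62.6 and 53.8 CPM against 76.4, 73.3 and 80.0 CPM. The G2 and M phase list had 31 of 54 positive and a median of 0.02. Among replication-dependent histones 11 of the 20 tested were positive, of 25 listed, with a median of 0.05 that ran from -0.07 without control 1 to 0.23 without control 3.

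Regulators upstream of S phase were in shorter lists. Of 7 pocket proteins and kinase inhibitors tested, 5 were positive, with a median of 0.20. Cdkn1a, the inhibitor p21, stood at 67.9, 71.5 and 72.9 CPM for control and at 95.2, 84.9 and 79.5 CPM for cKO libraries, with an unadjusted p of 0.014, and Cdkn2a had 90.8 ± 13.3 and 101 ± 12.6 CPM. E2F and DP factors had 6 of 10 positive and a median of 0.09, from 0.02 without control 1 to 0.20 without control 3, and their most abundant members, E2f5 and Tfdp2, had log2 fold changes of 0.11 ± 0.11 and -0.04 ± 0.10. Among 11 G1 cyclins and kinases 9 were positive, with a median of 0.16. The exception of smallest p was cyclin D3 (Ccnd3), at 110, 130 and 145 CPM for control and 113, 104 and 101 CPM for cKO libraries, whose groups overlapped.

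**Figure D4:**
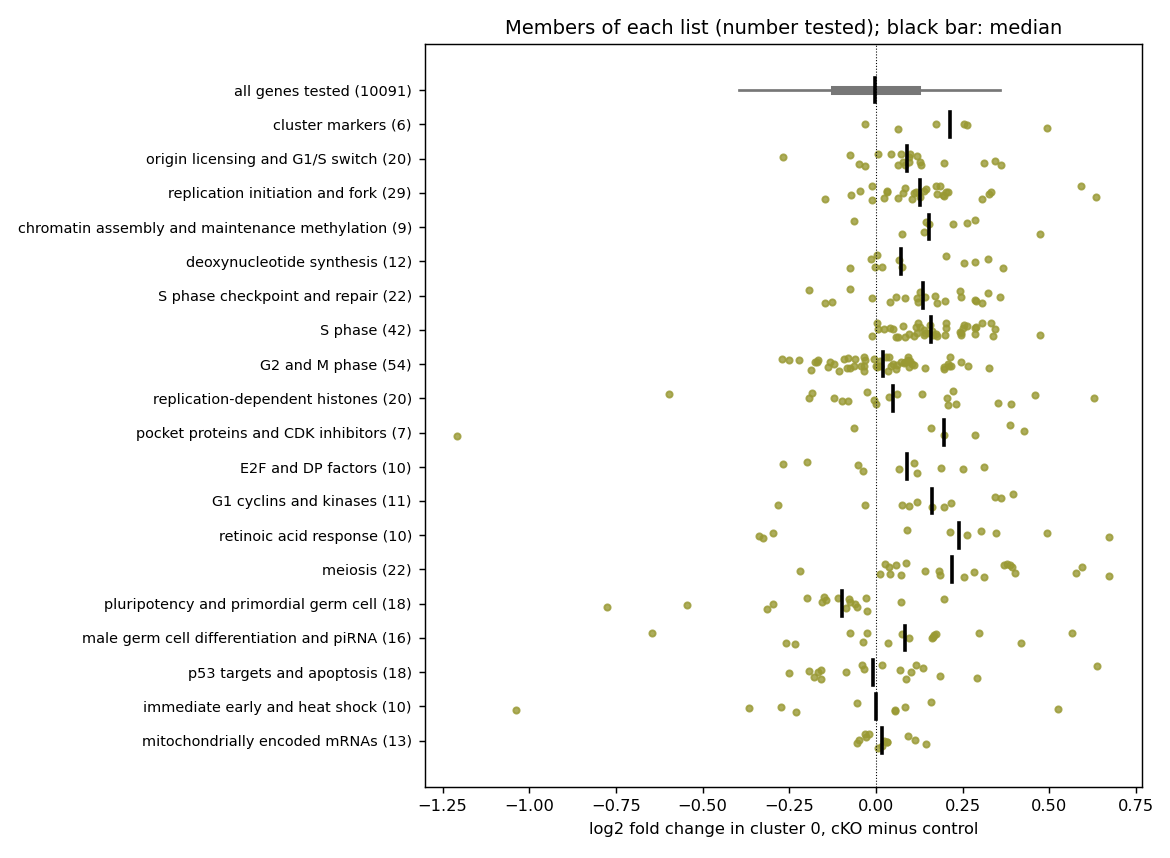
Log2 fold changes in cluster 0, cKO minus control (x axis), for the tested members of 19 lists (points) with the list's median as a black bar, and for all 10091 genes the 5th to 95th and 25th to 75th percentiles as a thin and a thick grey line. The S phase list lies right of 0 in 41 of 42 members (median 0.16) and the pluripotency list left of 0 in 16 of 18 (median -0.10), while the median of all genes is -0.002.

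Meiosis genes had 21 of 22 positive among those tested, of 26 listed, with a median of 0.22. That median was 0.04 without cKO 3, with 12 positive, and 0.32 without control 1. No alternative took it outside this range, the fit without cells of 5 or more Stra8 UMIs included. An unadjusted p under 0.05 was reached by 3 members that were higher, against 1.96% of all genes, and by 0 that were lower, against 1.92%. Smc1b, a meiotic cohesin subunit, stood at 195, 184 and 165 CPM for control and at 230, 211 and 265 CPM for cKO libraries, a log2 fold change of 0.38 ± 0.10. Hormad1, a protein of the meiotic chromosome axis, averaged 34.0 ± 1.27 CPM against 44.8 ± 4.30 CPM (SD), and the cohesin subunit Rec8 at 7.55, 6.01 and 3.42 CPM against 9.70, 8.42 and 8.30 CPM. For these 3 the groups did not overlap. In 4 of the 22 tested members the cKO libraries all lay above the controls, against 4.88% of all genes. The retinoic acid response list, which shares Rec8 with the meiosis list, had 7 of 10 positive and a median of 0.24 (0.03 without cKO 3), and its most abundant member, Rxrb, had 46.8 ± 2.89 CPM (controls) and 50.01 ± 4.73 CPM (cKO). Pluripotency and primordial germ cell genes pointed the other way, with 2 of 18 positive and a median of -0.10, from -0.19 without control 2 to -0.05 without control 3. Nanos3, needed for the survival of primordial germ cells, stood at 26.8, 21.5 and 22.6 CPM against 14.4, 17.98 and 16.1 CPM, and Tdgf1, a co-receptor for Nodal, at 8.80, 10.4 and 8.03 CPM against 5.01, 4.59 and 5.89 CPM. The abundant members Dppa5a and Dppa3 overlapped between groups, with log2 fold changes of -0.14 ± 0.12 and -0.03 ± 0.09.

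Lists outside these themes had medians from -0.01 to 0.08. For p53 targets and apoptosis 9 of 18 were positive, with a median of -0.01, and for immediate early and heat shock genes 5 of 10 and 0.00. Mitochondrially encoded mRNAs had 8 of 13 and 0.02, and male germ cell differentiation and piRNA genes 10 of 16 and 0.08. Leaving out single libraries took these medians to either side of 0, as for p53 targets, from -0.09 without control 1 to 0.10 without cKO 3. The male germ cell and piRNA median with all libraries lay between those of nucleotide synthesis (0.07) and origin licensing (0.09). Of 3 erythroid markers tested, 1 was positive, and Hba-a1 and Hba-a2 lay lower in each cKO library than in each control, as did 4.79% of all genes. Hba-a1 stood at 4.11 to 4.82 CPM for control and 1.25 to 3.25 CPM for cKO libraries. The part of Hba-a1 and Hba-a2 in the other results was not tested. The Sertoli cell list had 3 members tested, with 1 positive and a median of -0.75, and control 3 held its highest sum.

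Stra8 was carried by few cells of cluster 0. The cluster held 451 Stra8 UMIs, against 59 in the 2950 cells of the other 4 clusters, and they lay in 121 of its 2210 cells (5.48%, exact Clopper-Pearson 95% interval 4.56 to 6.51%). In 31 of these cells there were 5 or more UMIs, up to 21, and these 31 held 67.4% of the cluster's Stra8 UMIs. Outside cluster 0 a single cell, of cluster 2, reached 5. After thinning to 10000 UMIs, 4.16% of cluster 0 cells had a Stra8 UMI, against 0.888% in cluster 1, 2.11% in cluster 2, 1.49% in cluster 3 and 1.21% in clusters 1 to 4 together. The median depth before thinning was 14175 UMIs in cluster 0 and 13791 in the other clusters. Intervals cover counting error only.

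The 31 cells were not spread evenly over the samples. cKO 3 held 20 of them, cKO 2 held 0 and cKO 1 held 1, while controls 1, 2 and 3 held 2, 6 and 2. Stra8 stood at 11.1, 22.1 and 3.95 CPM in control cluster 0 libraries and at 5.46, 4.60 and 33.7 CPM in cKO libraries, without TMM factors, so that the groups overlapped and cKO 3 was highest. The share of thinned cells with a Stra8 UMI was 4.06%, 4.65% and 1.93% for controls, 2.75%, 3.09% and 7.68% for cKO samples, a difference of 0.958 percentage points with p = 0.8 in an exact two-sided permutation test. Without cKO 3 the difference was -0.628 points. Summed counts cannot tell more cells with the transcript from more transcript per cell, and here the sample with the most cells of 5 or more UMIs was also the one with the highest CPM.

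The cells with 5 or more Stra8 UMIs carried more of several meiotic transcripts than the 2089 cells with none. They were chosen by their Stra8 counts and the genes below, apart from the fixed lists, were picked after their values were seen, so what follows is a description without a test. The meiosis list summed to 2062 CPM in the 31 cells, to 1614 CPM in 17 cells with 3 or 4 UMIs, to 1208 CPM in 73 cells with 1 or 2 and to 941 CPM in cells with none. Smc1b stood at 674 CPM (exact 95% Poisson interval 598 to 757) against 195 CPM, and the synaptonemal complex genes Sycp1 and Sycp3 at 180 and 187 CPM against 34.0 and 35.4 CPM. Rec8, a target of retinoic acid, stood at 49.7 CPM (30.7 to 75.9) against 5.96 CPM, and Meioc, which prolongs meiotic prophase, at 37.8 CPM against 3.86 CPM. The germ cell surface gene Tex101 reached 104 CPM against 6.20 CPM and the growth factor Mdk, itself induced by retinoic acid, 310 CPM against 32.9 CPM. The order held in cKO 3 and in the remaining samples: the meiosis list had 2416 against 1041 CPM in cKO 3 and 1553 against 910 CPM elsewhere.

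Other genes were lower in the same cells. The cluster's own markers other than Stra8 summed to 232 CPM in the 31 cells and 452 CPM in cells with no Stra8 UMI, with 0 of 5 higher. Ccne1 stood at 42.6 against 86.6 CPM, Rrm2 at 102 against 192 CPM and Cdc6 at 18.9 against 51.5 CPM, while the broader S phase lists differed less. The S phase list summed to 6821 against 7333 CPM, with 11 of 42 higher. Replication initiation and the fork summed to 3216 against 3252 CPM, with 14 of 29 higher. Chromatin assembly and maintenance methylation summed to 2578 against 2432 CPM. These sums pooled samples that differed. The S phase list had 7725 against 7814 CPM in cKO 3 and 5518 against 7188 CPM in the remaining samples. Replication initiation and the fork had 3474 against 3485 CPM in cKO 3 and 2846 against 3182 CPM elsewhere. Chromatin assembly and maintenance methylation was higher in cKO 3, at 3013 against 2664 CPM, and lower elsewhere, at 1951 against 2362 CPM. The G2 and M phase list was higher, at 10600 against 8366 CPM, and Plk1, a mitotic kinase, stood at 116 against 25.8 CPM. The pluripotency list had 7935 against 9291 CPM, with Utf1 at 532 against 938 CPM, whereas Dppa3 hardly differed, at 2637 and 2688 CPM. Creatine kinase B (Ckb) stood at 109 against 428 CPM. Nanos2, a gene of male germ cell fate, had 0 UMIs in the 31 cells and 5.56 CPM in cells with none; a count of 0 there allows up to 7.09 CPM by the limit of 3 counts (8.72 CPM by the exact 95% Poisson interval), so a difference was not detectable at this depth. The doublet caller marked 0 of the 31 cells and 58 of the 2089, and the median depth was 12515 and 14207 UMIs. Mitochondrially encoded mRNAs summed to 30821 and 38228 CPM in these cells, and their part in the other differences was not tested.

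**Figure D5:**
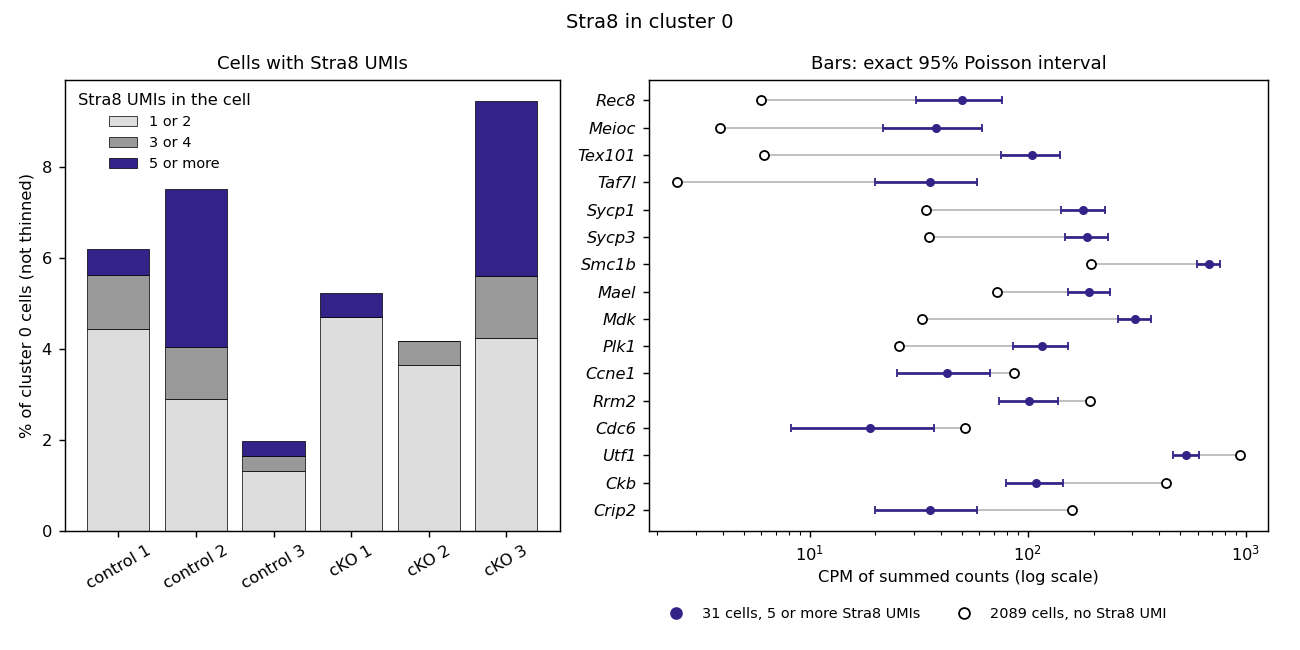
Left, percent of cluster 0 cells with 1 or 2, 3 or 4, and 5 or more Stra8 UMIs, by sample, without thinning. Right, CPM (log scale) of 16 genes in the 31 cells with 5 or more Stra8 UMIs (filled, with exact 95% Poisson intervals for counting error) and in the 2089 cells with none (open): meiotic genes such as Rec8 and Sycp3 lie to the right in the filled set, and Ccne1, Rrm2 and Cdc6 to the left.

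Whether the genotype effect in cluster 0 differed from that in other cells was tested as a difference of effects, with the sample as a block. Against the other 4 clusters together, edgeR called 6 of 10776 genes (0.0557%), against cluster 1 it called 2 of 10413 (0.0192%) and against cluster 2 it called 2 of 9539 (0.021%). DESeq2 called 0 of the first set, with 9 higher and 13 lower at an unadjusted p under 0.05, where edgeR had 219 and 295. None of the genes called was a cluster marker or a member of a list. For the genes of smallest p within cluster 0, the effect was about as large in the rest: 2810417H13Rik stood at 24.2 ± 2.45 CPM for control and 35.2 ± 0.891 CPM for cKO libraries outside cluster 0 (SD, n = 3 each, without TMM factors), and the log2 difference of effects was 0.07 ± 0.11 (SE). For Rb1 it was 0.09 ± 0.31, for Prim1 0.04 ± 0.07 and for Slbp 0.01 ± 0.04, and the largest of the 10 was Prim2, at 0.21 ± 0.13 with an adjusted p of 0.99. The 6 markers had a median difference of -0.11 against the other clusters together, with 1 positive. It was -0.20 against cluster 1, with 0 positive, and 0.12 against cluster 2, with 6 positive. Cdc6 and Gins2 stood at -0.33 ± 0.12 and -0.33 ± 0.13 against the other clusters, with adjusted p of 0.72 and 0.85 by edgeR. Over the S phase list the median difference was -0.05 against the other clusters together, with 13 of 42 positive, where 5099 of all 10776 genes were positive. Against cluster 1 it was -0.04, with 14 of 42 positive, where 4917 of all 10413 genes were positive. Against cluster 2 it was 0.08, with 35 of 42 positive, where 4803 of all 9539 genes were positive.

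The 6 genes called against the other clusters were Retn, Zfp607, Ccdc163, Gfod2, Mgarp and Gm26737, all with a negative difference. Much of their signal lay in few cells: per gene, 1 to 31 cluster 0 cells with 5 or more UMIs held 33.6 to 72.0% of its UMIs in the cluster. Retn, the hormone resistin, stood at 6.88, 4.80 and 25.2 CPM in control cluster 0 libraries and at 4.82, 2.68 and 18.7 CPM in cKO libraries, and in the other clusters at 3.09, 1.79 and 15.1 CPM against 4.26, 1.90 and 42.1 CPM. Control 3 and cKO 3 were thus high on both sides, and 13 cells of cluster 0 with 5 or more Retn UMIs held 72.0% of its UMIs. Without cKO 3 the log2 difference for Retn was -0.52 with an adjusted p of 0.9998, and for none of the 6 did the call hold. Without control 3, Retn and Gm26737 kept theirs. Of 124 cluster 0 cells with 5 or more UMIs of any of the 8 genes called in the 3 comparisons, 9 had 5 or more of a second one.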

How the data were processed

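Single-cell libraries of 6 samples (3 control, 3 cKO) were analysed, grouped by the labels. The deposited table holds UMI counts for 27998 genes in 5160 barcodes, and a deposited metadata table gives each barcode's sample and cluster. Per the submitters' processing notes, Cell Ranger and Seurat 3.0 were used with mm10; alignment settings, filters on cells and any removal of doublets are not given in the sources used here.

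Counts of cluster 0, and of the other clusters, were summed per sample (3110738 to 7857361 UMIs in cluster 0). cKO and control were compared with edgeR 4.0.16 (quasi-likelihood, TMM factors, filterByExpr, Benjamini-Hochberg over all genes tested, threshold 0.05) in R 4.3.3; the difference of effects between clusters kept the sample as a block. CPM of single genes in the genotype comparison are TMM-scaled unless stated. List sums and all other CPM are plain. Ratios to the other clusters used log2(CPM + 1). Counts per cell were compared after thinning to 10000 UMIs, which left out 166 cells of cluster 0. Scrublet in scanpy 1.11.5 marked 59 cells of cluster 0 (2.67%), which were kept. Exact permutation tests used scipy 1.17.1, and intervals are exact (95%). The scripts were tested on simulated data.

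Named genes were the 6 markers, the 12 highest and 8 lowest against the other clusters (mean of at least 50 CPM, 1 direction in 6 of 6 samples), the 5 of smallest p in each direction, per list the 2 most abundant and the 2 of smallest p, the 3 of smallest p per difference of effects, and Rb1; not every one is printed. The members and lists were chosen with earlier results of these data known. Alternatives were other scaling, DESeq2 1.42.0, no filter, cell filters, doublets removed, a replicate block, equal cell numbers, thinning and leaving out each library. Cells with 5 or more Stra8 UMIs, or the top cell of each gene, were also left out. Of the alternatives, 4 were chosen after seeing the data. The names of genes called only when control 3 was left out are not reported here.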

Additional observations from a re-analysis of the deposited data

Results flagged for a closer look

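A test of the difference itself singled out 10 values, all of them genes whose change from control to cKO was lower in cluster 0 than in other cells (edgeR's quasi-likelihood test, adjusted over all genes). Against the other 4 clusters together the log2 differences were -1.81 for Retn, -1.97 for Zfp607, -1.61 for Ccdc163, -1.30 for Gfod2, -3.38 for Mgarp and -1.04 for Gm26737. Against cluster 1 they were -2.33 for Retn and -2.50 for Zfp607. Against cluster 2 they were -2.15 for 4930548H24Rik and -3.27 for Dqx1. Control 3 and cKO 3 held 10 of the 13 cluster 0 cells with 5 or more Retn UMIs, and 1 cell of control 3 held 46.2% of the cluster's Mgarp UMIs. For 4930548H24Rik, 48 cells held 71.0% of the UMIs, and for Dqx1, 7 cells held 73.3%. The part of single cells in these differences was not tested beyond leaving out the top cell of each gene, after which 4 of the first 6 were called.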

How the results depend on the processing

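With 3 samples a group, edgeR called 0 genes between genotypes in cluster 0, and 15 without a filter on low counts; leaving out 1 library gave 0 to 2 (2 without control 3). The replicate block also gave 0, with 240 higher and 229 lower at an unadjusted p under 0.05. Same-numbered samples correlated at -0.13, 0.17 and 0.14, and differently numbered ones at -0.24 to 0.12. The numbers were not taken to pair the samples, but these values do not settle whether they do. For the difference of effects against the other clusters, 6 calls became 0 with DESeq2, and 1 to 8 without 1 library (1 without cKO 3). Against cluster 1, 2 calls became 4 without a filter and 1 to 6 without 1 library; against cluster 2, 2 calls became 2 to 6. The difference in cells with a Stra8 UMI ran from -0.628 (without cKO 3) to 1.84 percentage points. That in median UMIs ran from -1188 to 1323 without 1 library, and was above 0 without control 2 (1323) and without cKO 2 (604). The median log2 ratio of the 6 markers to the rest was 1.08, and 0.87 against the unweighted mean of the other 4 clusters. Of 91 named genes tested, 68 kept their sign between genotypes under all 15 alternatives and 23 did not. The cause of these changes was not tested. Cluster 4 (98 cells) and Rb1 (14 to 57 UMIs per library) are limited by depth.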
